A study of Homo sapiens with 4 samples.

Results

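The levels of 8 genes were followed across 4 single-cell libraries: *KDM5A*, *KDM5B*, *KDM5C*, *KDM1A*, *KDM6B*, *KDM4A*, *KDM4B* and *KDM2A*. They were listed by name as *KDM5B* and other histone demethylases, not by a limit on any measured value, and were 8 of the 32991 genes that all 4 libraries listed. The list was, however, chosen with earlier results of these data known. All libraries came from A375, an established melanoma cell line with an activating mutation of BRAF, a kinase of the MAPK pathway. S cells were untreated. RV cells had been kept in vemurafenib, an inhibitor of mutant BRAF. RVC cells had been kept in vemurafenib with cobimetinib and RVT cells in vemurafenib with trametinib, both inhibitors of the kinases MEK1 and MEK2. Treated cultures were exposed for 10 to 14 days to a fraction of each drug's inhibitory concentration, and the drugs were taken away 24 hours before capture. There was 1 library per condition and no replicate, so no difference between conditions was tested. Each interval below is a 95% interval for counting error alone, exact Poisson for a level, exact Clopper-Pearson for a share and exact conditional for a ratio. What another culture of the same treatment would give is not known from these data.

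Histone demethylases remove methyl groups from lysines of histone tails. The KDM5 enzymes act on trimethylated and dimethylated lysine 4 of histone H3 (H3K4), a mark of active promoters, and KDM1A (LSD1) acts on the lower methylation states of the same lysine. KDM6B removes the repressive mark at lysine 27, KDM4A and KDM4B act on lysines 9 and 36, and KDM2A acts on lysine 36. *KDM5B* (JARID1B) is known in melanoma as a marker of slow-cycling cells that tolerate drugs.

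After filtering, the libraries held 4177 to 8445 cells and 25407545 to 58611860 UMIs (unique molecular identifiers, each standing for 1 captured RNA molecule). The median cell held 8808 UMIs in S and 11553 in RV, with 3959 in RVC and 2871 in RVT. S and RV listed 33694 genes and RVC and RVT 33538, so both MEK inhibitor libraries also differed from the other pair in annotation and depth, and drug and library cannot be told apart there. Between 38 and 149 cell barcodes were shared by any pair of libraries. Of 8 melanocyte lineage markers, *TYR* had no UMI in any library, *MLANA* and *DCT* had at most 2, *PMEL* stayed below 1 CPM (UMIs per 1000000 UMIs) and *SOX10* stood at 86.3 CPM in S and 39.9 in RV, with 0 in RVC and 19.4 in RVT. *S100B* stood at 32.8 CPM in S, 6.97 in RV and 0.276 in RVT, and was also at 0 in RVC. The other 2 went differently: *MITF* stood at 9.78 CPM in S and 20.2 in RV, with 8.13 in RVC and 41.3 in RVT, and *S100A1* at 10.7 and 2.88, with 3.18 and 16.8. The immune markers *PTPRC* and *CD3E* and the red cell marker *HBB* had no UMI in any library, while the immune marker *LYZ* stayed below 1 CPM. The endothelial markers *PECAM1* and *VWF* reached at most 1.27 CPM, and the keratinocyte marker *KRT5* had at most 1 UMI. Another keratinocyte marker, *KRT14*, stood at 6.24 CPM in S and 11.3 in RV, with 0 in RVC and 0.708 in RVT. *VIM*, a marker of the culture, stood at 2433 CPM in S and 2587 in RV, with 559 in RVC and 330 in RVT. In RVC *MITF* and *S100A1* were thus present while *SOX10* and *S100B* were not seen. Whether this or the lower *VIM* level of RVC and RVT bears on the values below was not tested.

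In GRCh38 with GENCODE 29, *KDM5B* lies at chr1:202724495-202809470 on the minus strand, *KDM5A* at chr12:280129-389454 (minus), *KDM5C* at chrX:53191321-53225422 (minus) and *KDM1A* at chr1:23019443-23083689 (plus). *KDM6B* lies at chr17:7839904-7854796, *KDM4A* at chr1:43650158-43705515, *KDM4B* at chr19:4969113-5153595 and *KDM2A* at chr11:67119269-67258087, all on the plus strand. UMIs were counted over whole genes from reads near the 3′ end, so levels are compared between libraries and not between genes.

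*KDM5B* stood at 26.4 CPM in S (25.1 to 27.7) and 22.9 in RV (21.6 to 24.2), with 39.5 in RVC (37.3 to 41.7) and 122 in RVT (118 to 126). None of these intervals overlapped, and RVT was far above the other libraries. RVT cells also had the highest median mitochondrial share, 5.77% against 3.15% in S, 3.06% in RV and 3.58% in RVC, and the filter removed 1084 RVT barcodes for few genes and 580 for mitochondrial share, against 903 and 478 of RVC and 0 and 2 of S. Between the outer of 4 bins of cells by mitochondrial share, *KDM5B* went from 23.2 to 31.8 CPM in S, from 21.7 to 26.1 in RV, from 34.3 to 43.5 in RVC and from 116 to 126 in RVT. With all barcodes kept, the log2 ratio of RVT to S was 2.23. The nuclear RNA *NEAT1* was at 467 CPM in S and 7452 in RVT. Between cells with the highest and the lowest share of UMIs on *NEAT1* and *MALAT1* (outer of 4 bins) the *KDM5B* log2 ratio was 0.68 in S and 0.32 in RVT, and between cells with the most and the fewest UMIs it was -0.48 in S and -0.49 in RVT. The part of these features in the RVT level was not tested. The ratio of RVT to S was 4.62-fold (4.34 to 4.91), and that of RVT to RVC, the library of the other MEK inhibitor, was 3.09-fold (2.89 to 3.3). RVC exceeded S 1.5-fold (1.39 to 1.61), and in RV the level was 1.15-fold lower than in S. In RVT over S the *KDM5B* log2 ratio of 2.21 stood at the 92.8th percentile of the 8838 genes with a mean of at least 5 CPM over the libraries.

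Gene-specific ratios of RVC and RVT to S fell as the GC content of the last 500 transcript bases rose. The Spearman coefficient across 8834 genes, which are not independent replicates, was -0.347 in RVC over S, -0.405 in RVT over S and 0.003 in RV over S. These bases of *KDM5B* were 35.2% GC. Centring each ratio on the median of genes in the same of 10 GC bins left *KDM5B* 1.44 above 0 on the log2 scale in RVT over S and 0.11 in RVC over S. TMM scaling, which shifted the median log2 ratio of all genes by -0.517 in RVT over S, -0.214 in RVC over S and -0.303 in RVT over RVC, gave 1.69 and 0.37. The rise in RVT thus exceeded 2-fold by each of these measures, and the smaller one in RVC did so by none.

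**Figure D1:**
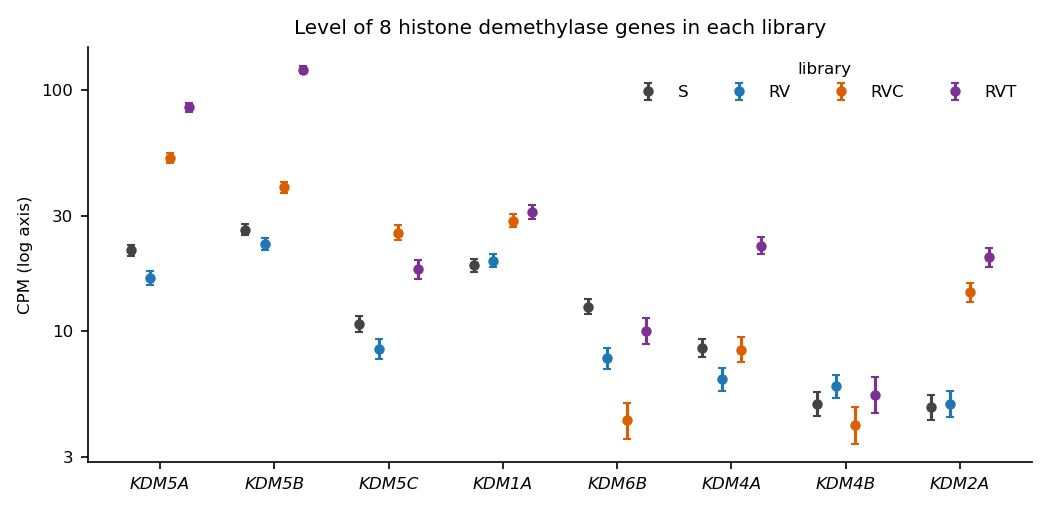
Levels of the 8 genes in CPM (log axis) in each library, with S grey, RV blue, RVC orange and RVT purple; bars are 95% Poisson intervals. *KDM5B* reached 122 CPM in RVT against 26.4 in S, whereas *KDM6B* was lowest in RVC at 4.25.

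Of the remaining KDM5 genes, *KDM5A* had the same order of libraries as *KDM5B* and *KDM5C* another. *KDM5A*, encoded on chromosome 12, stood at 21.6 CPM in S (20.4 to 22.8) and 16.6 in RV (15.5 to 17.7), with 52.1 in RVC (49.7 to 54.7) and 85.1 in RVT (81.5 to 88.8). It exceeded S 2.41-fold in RVC and 3.94-fold in RVT. *KDM5C*, an X-linked gene, stood at 10.7 CPM in S (9.88 to 11.6) and 8.42 in RV (7.65 to 9.24), with 25.6 in RVC (23.9 to 27.4) and 18.1 in RVT (16.5 to 19.8), so its highest level was in RVC and not in RVT. Between outer bins by mitochondrial share *KDM5C* went from 14 to 36.4 CPM in RVC and from 16.4 to 19.8 in RVT. By the *NEAT1* and *MALAT1* share it went from 17.1 to 34.8 and from 18.2 to 20.1. RVC was thus below RVT in both lowest bins, by small margins for which no counting interval is given here. By UMIs per cell RVC stayed above, at 29.3 and 24.4 against 17.9 and 16.2 CPM. The part of these features in the order was not tested. Relative to genes of similar GC content the *KDM5C* log2 ratio was 0.79 in RVC over S and -0.01 in RVT over S, and that of *KDM5A* 0.79 and 1.37, so that in RVC neither gene stayed 2-fold above S. *KDM5B* accounted for 44.9% of the UMIs of these 3 genes in S (43.3 to 46.6) and 47.8% in RV (45.8 to 49.8), with 33.7% in RVC (32.2 to 35.2) and 54.2% in RVT (52.9 to 55.5). Thus the RVC and RVT shares lay on opposite sides of the S share.

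*KDM1A*, the catalytic demethylase of the CoREST repressor complex, was at 18.7 CPM in S (17.6 to 19.9) and 19.5 in RV (18.4 to 20.8), with 28.8 in RVC (27 to 30.6) and 31.2 in RVT (29 to 33.4). S and RV overlapped, as did RVC and RVT, and the larger ratio, RVT over S, was 1.66-fold (1.52 to 1.82). That ratio is without TMM scaling or GC centring, and TMM scaling shifted the median log2 ratio of all genes by -0.517 in RVT over S. The ratio of RVC to S was 1.53-fold (1.41 to 1.68) over all cells, but 1.02 (0.739 to 1.38) in thinned cells with at most 2 UMIs of cycling genes, where RVC held 47 *KDM1A* UMIs. It was 1.58-fold (1.35 to 1.85) in cells with 3 to 7 and 1.34-fold (1.16 to 1.55) in cells with at least 8, and RVT over S was 1.72-fold (1.51 to 1.95) in the class with at most 2. *KDM6B* was at 12.6 CPM in S (11.7 to 13.6) and 7.71 in RV (6.98 to 8.5), with 4.25 in RVC (3.57 to 5.01) and 10 in RVT (8.81 to 11.3). It was the only one of the 8 genes below S in all 3 treated libraries by intervals that excluded 1, by 1.64-fold in RV, 2.97-fold in RVC and 1.26-fold in RVT. How large a share of all genes met that rule is not given here, so nothing particular to *KDM6B* was read from it. The interval for RVT over S included 1 in cells with 3 to 7 cycling UMIs (0.94, 0.697 to 1.25), and the class with at least 8 held 2 *KDM6B* UMIs in RVT. Centring on GC bins left the *KDM6B* log2 ratio in RVC over S at -1.56.

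*KDM4A* was at 8.51 CPM in S (7.78 to 9.29) and 6.3 in RV (5.64 to 7.02), with 8.37 in RVC (7.41 to 9.42) and 22.6 in RVT (20.8 to 24.5), so that it was above S in RVT, below S in RV and overlapped S in RVC. RVT exceeded S 2.65-fold (2.35 to 3), a log2 ratio of 1.41 that became 0.89 with TMM scaling, and exceeded RVC 2.7-fold. A readthrough gene on the same strand, AL451062.3, was listed in RVC and RVT and not in S and RV. It shared 2077 of the 5172 exonic bases of *KDM4A* but none of the last 500, and had 0 UMIs in RVC and 1 in RVT. Whether this difference in annotation bears on the *KDM4A* ratios was not tested. *KDM2A* was at 4.81 CPM in S (4.27 to 5.41) and 4.98 in RV (4.4 to 5.62), with 14.5 in RVC (13.2 to 15.9) and 20.2 in RVT (18.5 to 22), 3.01-fold and 4.2-fold above S in RVC and RVT. Its last 500 bases were 28.8% GC, the lowest of the 8 genes, and the log2 ratios centred on GC bins were 1.01 and 1.17. *KDM4B* was at 4.96 CPM in S (4.41 to 5.57) and 5.88 in RV (5.24 to 6.57), with 4.06 in RVC (3.41 to 4.81) and 5.43 in RVT (4.56 to 6.42), with overlapping intervals for S against each treated library, although the ratio of RV to S was 1.18-fold (1.01 to 1.39). Its last 500 bases were 57.8% GC, the highest of the 8, and GC centring moved its log2 ratio from -0.29 to 1.48 in RVC over S and from 0.13 to 1.99 in RVT over S. The direction of *KDM4B* thus turned in RVC over S, and in RVT over S it turned with TMM scaling, to -0.39.

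**Figure D2:**
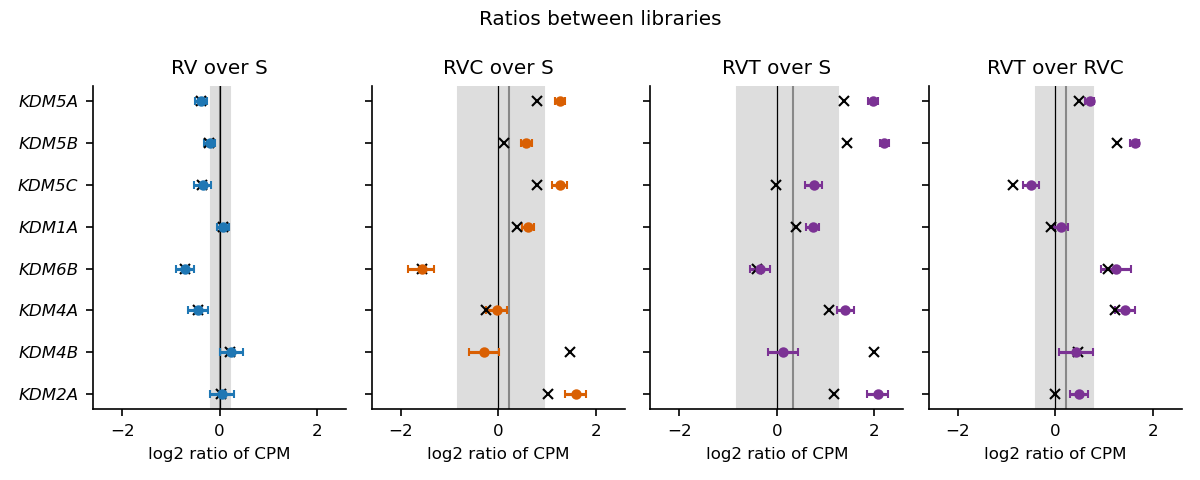
Log2 ratio of CPM for the 8 genes in 4 comparisons; points with 95% counting intervals are uncorrected, crosses are centred on GC bins, the grey band spans the 25th to 75th percentile of 8838 genes and the grey line is their median. *KDM5B* in RVT over S lies at 2.21 uncorrected and 1.44 centred.

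The windows upstream of *KDM4B* and *KDM1A*, which moved in opposite directions between more and less cycling cells of S and RV, are shown as the 250 bases before the RefSeq start (GRCh38.p14), both on the plus strand at chr19:4968863-4969112 and chr1:23019218-23019467. Capitals mark the CCAAT box (CCAAT), the GC box (GGGCGG) and the E-box (CACGTG), searched on both strands.
KDM4B: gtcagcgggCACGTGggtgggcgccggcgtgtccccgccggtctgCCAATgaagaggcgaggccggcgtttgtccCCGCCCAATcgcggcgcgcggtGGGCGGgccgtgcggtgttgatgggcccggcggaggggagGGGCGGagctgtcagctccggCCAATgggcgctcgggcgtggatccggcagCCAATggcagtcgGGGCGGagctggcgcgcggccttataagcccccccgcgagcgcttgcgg
KDM1A: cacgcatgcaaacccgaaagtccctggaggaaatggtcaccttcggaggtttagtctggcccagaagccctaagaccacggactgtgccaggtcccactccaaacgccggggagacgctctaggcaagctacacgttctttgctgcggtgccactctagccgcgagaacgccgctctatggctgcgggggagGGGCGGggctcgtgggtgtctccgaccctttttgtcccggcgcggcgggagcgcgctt
The *KDM4B* window held 4 CCAAT boxes, 4 GC boxes, 1 of which overlaps a CCAAT box, and 1 E-box, and the *KDM1A* window held 1 GC box. Of the other windows, that of *KDM4A* held 3 CCAAT boxes, the first of *KDM6B* 4 GC boxes, that of *KDM5B* 3 GC boxes and that of *KDM5A* 1. The second of *KDM2A* held 1 CCAAT box and 1 GC box, and the rest held 0 of either. A link of these boxes to the direction over cycling cells was not tested. Of 35116 windows of this length in the table, 32.0% held a CCAAT box, 42.6% a GC box and 6.3% an E-box. The CHR element (TTTGAA), held by 13.3% of all windows, the cyclic AMP response element (TGACGTCA), held by 1.6%, and the E2F core (TTTCGCGC, TTTGGCGC, TTTCCCGC or TTTGCCGC), held by 2.8%, were in none of the 10 windows listed for the 8 genes. The windows of *KDM5A*, *KDM5B* and *KDM5C*, however, lay for 207, 250 and 215 of their 250 bases inside annotated untranslated regions, so they hold little sequence upstream of every annotated start. These matches describe letters and not binding.

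Counted at 2-fold, RVT over S held 4 higher genes (*KDM5A*, *KDM5B*, *KDM4A* and *KDM2A*) and 0 lower, where 31.3% of all 8838 genes were higher and 22.2% lower. RVC over S held 3 higher (*KDM5A*, *KDM5C* and *KDM2A*) and 1 lower (*KDM6B*), where 22.9% of all genes were higher and 22.0% lower. RVT over RVC held 3 higher (*KDM5B*, *KDM6B* and *KDM4A*) and 0 lower, beside 17.3% and 11.2% of all genes. RV over S held 0 of the 8 in either direction, beside 2.22% and 1.74%. With TMM scaling the share of all genes at least 2-fold higher and lower became 18.4% and 30.7% in RVT over S, 16.6% and 25.5% in RVC over S, and 9.78% and 17.0% in RVT over RVC. The members' counts then were 3 and 0 in RVT over S, 3 and 1 in RVC over S, and 2 and 0 in RVT over RVC. *KDM2A* and *KDM4B* stood below 5 CPM in S and passed the mean through treated libraries. Among genes of at least 5 CPM in S, a limit chosen after the data were seen, 6 of the 8 remained. Of these, 3 were higher and 0 lower in RVT over S, where 23.3% of 8001 genes were higher and 27.0% lower. In RVC over S 2 were higher and 1 lower, beside 17.2% and 26.9%, and in RV over S 0 in either direction, beside 1.56% and 2.0%. With so few genes, nothing particular to the list was read from these counts. The median log2 ratio of the 8 was -0.28 in RV, 0.6 in RVC and 1.08 in RVT over S, beside 0.02, 0.21 and 0.34 for all genes.

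Shares of cells with a UMI were compared at equal depth. Every cell was thinned at random to 1500 UMIs, which left out 0 cells of S and RV, 397 of RVC and 845 of RVT. *KDM5B* was then seen in 242 of 6334 S cells, or 3.82% (3.36 to 4.32), in 3.14% of RV cells (2.63 to 3.71), in 5.54% of RVC cells (5.02 to 6.09) and in 16.9% of RVT cells (16 to 17.7). Unthinned, the same shares were 21%, 23.2%, 15.1% and 30.6%, an order in which RVC, with shallower cells, fell below S. *KDM5A* was seen in 3.32% of S, 2.47% of RV, 7.36% of RVC and 11.8% of RVT cells. *KDM4B* was found in 0.471% to 0.868% of cells, with its highest share in RVT (0.672 to 1.1) although its highest level was in RV, where the share was 0.766% (0.525 to 1.08). At least 1 of the 8 genes was seen in 14.8% of S, 12.1% of RV, 22.6% of RVC and 37.6% of RVT cells. The culture holds no cell type known to lack these genes, so the part of free RNA in these shares was not measured.

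After thinning, the *KDM5B* UMIs of RVT were spread over cells about as a Poisson distribution spreads them. Thinning left a mean of 0.185 UMIs per cell and left out 845 cells, so unevenness between cells can be hidden. Between the RVT cells with the fewest and the most UMIs (outer of 4 bins), *KDM5B* stood at 152 and 108 CPM. In the thinned RVT cells, 1.54% held 2 or more *KDM5B* UMIs where a Poisson distribution of the same mean gives 1.51%, and the ratio of variance to mean was 1. No unthinned RVT cell held more than 4. In S, 11 cells or 0.174% held 2 or more against 0.0777% by the Poisson distribution, in RV 7 cells or 0.168% against 0.0534%, and in RVC 19 cells or 0.263% against 0.162%. For comparison, 6.73% of RV cells held 2 or more *CDKN1A* UMIs against 4.69% by the Poisson distribution, with a variance 2.18 times the mean. In RVT 2.5% of cells did so against 1.26%, with a variance 1.3 times the mean.

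**Figure D3:**
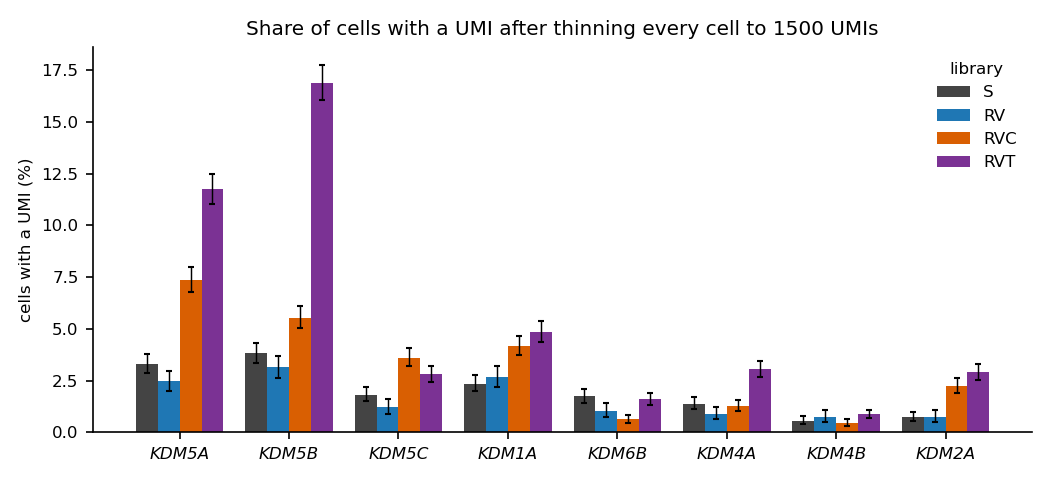
Share of cells with at least 1 UMI (percent) of each gene after every cell was thinned to 1500 UMIs; bars are libraries and error bars exact 95% binomial intervals. *KDM5B* was seen in 16.9% of RVT cells against 3.14% to 5.54% in the other libraries.

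Cells of each library were ranked by the share of their UMIs on 43 G1/S and 54 G2/M genes and split into 4 bins of equal size. *KDM5B* fell with that share in the untreated and the vemurafenib library. From the lowest to the highest bin it stood at 35.1, 29.2, 22.1 and 20.7 CPM in S, and at 30.1, 25.6, 16.7 and 19.8 CPM in RV. The highest bin was 1.7-fold below the lowest in S, a log2 ratio of -0.76 (-0.97 to -0.56), and 1.52-fold below in RV, a log2 ratio of -0.60 (-0.83 to -0.38). In RVC the bins stood at 45.8, 34.1, 36.5 and 42.6 CPM and in RVT at 122, 118, 123 and 124 CPM. Highest and lowest bins overlapped in both, with log2 ratios of -0.10 (-0.32 to 0.12) and 0.02 (-0.13 to 0.17). In RVT 564 of 2112 cells of the lowest bin had no UMI of a cycling gene, and the proliferation marker *MKI67* was at 0.326, 0.605, 0.611 and 99.4 CPM over its bins, with the lowest 3 below 1 CPM. Median UMIs per cell rose from 7983 to 10201 between the lowest and highest bin of S and from 10908 to 13048 in RV. The share of UMIs on the nuclear RNAs *NEAT1* and *MALAT1* fell from 1.37% to 1.17% in S and from 1.37% to 0.823% in RV. With cells ranked inside 10 strata of UMIs per cell, the *KDM5B* log2 ratio was -0.54 in S and -0.58 in RV, and inside strata of the *NEAT1* and *MALAT1* share it was -0.67 in S and -0.27 in RV.

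*KDM4B* fell more steeply over the same bins. It stood at 7.97, 4.73, 4.13 and 3.44 CPM in S and at 10.5, 5.56, 3.95 and 3.71 CPM in RV, which is 2.32-fold and 2.84-fold lower in the highest bin. In RVC and RVT the *KDM4B* log2 ratios of -0.33 (-1.05 to 0.38) and 0.09 (-0.64 to 0.82) rest on few UMIs. *KDM1A* went the other way, from 16.8 to 22.2 CPM in S, from 13.6 to 21.3 in RV and from 23.9 to 33.8 in RVC between the lowest and highest bins, with log2 ratios of 0.40 (0.16 to 0.65), 0.65 (0.38 to 0.93) and 0.50 (0.22 to 0.78). In RVT it stood at 31.6 and 32.5 CPM. *KDM5C* was 1.33-fold lower in the highest bin of S and *KDM6B* 1.37-fold lower in that of RV by intervals that excluded 1. Their log2 ratios lay at percentiles 12.1 and 13.8 of the genes outside the cycling lists. *KDM5A*, *KDM4A* and *KDM2A* had intervals that included 1 in every library. How large a share of all genes had intervals that excluded 1 is not given here, so nothing particular to these genes was read from them.

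**Figure D4:**
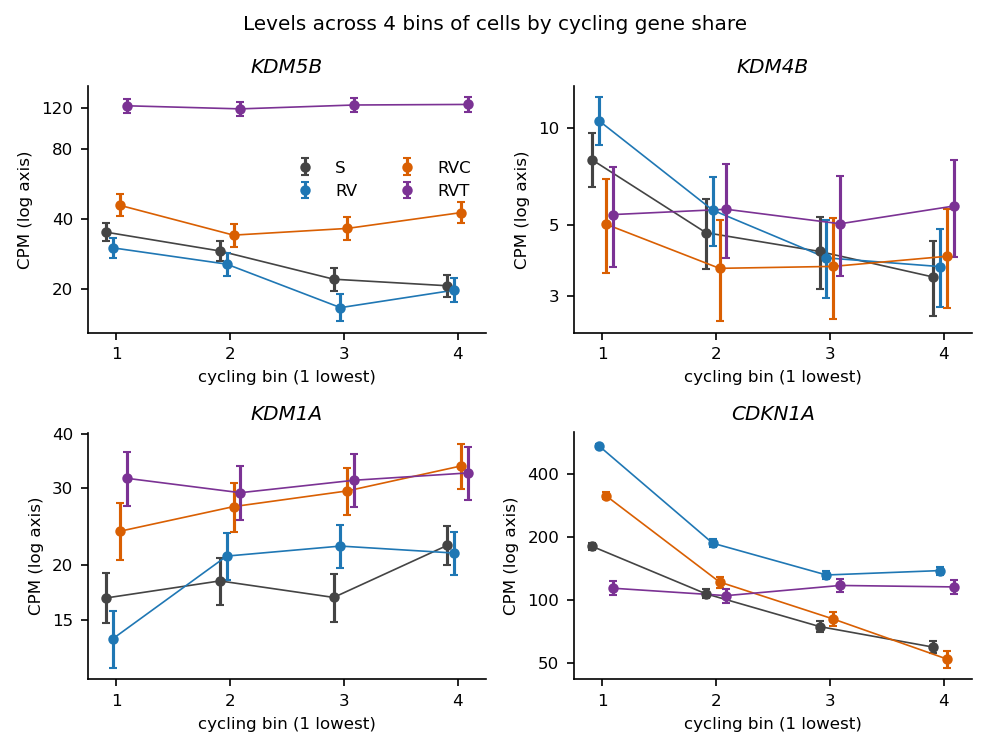
Level (CPM, log axis) of *KDM5B*, *KDM4B*, *KDM1A* and *CDKN1A* in 4 bins of the cells of each library, ranked by the share of UMIs on cycling genes; bars are 95% Poisson intervals. *KDM5B* and *KDM4B* slope down in S and RV, *KDM1A* slopes up in S, RV and RVC, and the RVT lines change little.

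At 1.5-fold between bins, S had 0 genes of the 8 higher and 2 lower (*KDM5B* and *KDM4B*), where 17.3% of 8750 genes outside the cycling lists were higher and 7.14% lower. RV had 1 higher (*KDM1A*) and 2 lower (*KDM5B* and *KDM4B*), beside 28.4% and 10.1%. There *KDM1A*, 1.57-fold higher, and *KDM5B*, 1.52-fold lower, stood close to the limit, and several alternatives given further below had fewer calls in RV. RVC and RVT had 0 in either direction, beside 12.1% and 4.86% of genes in RVC and 10.5% and 1.42% in RVT. These counts depended on how cells were classed: some alternatives given further below had calls in RVC or RVT, and some had fewer in S. The log2 ratio of *KDM5B* lay at percentile 4.21 of these genes in S and 9.68 in RV, and that of *KDM4B* at 1.14 and 1.3.

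Because the bins of RVC and RVT stand for other amounts of cycling than those of S, thinned cells were also put into fixed classes by the number of cycling gene UMIs among 1500. Cells with at most 2 were 48% of S, 35% of RV, 9.13% of RVC and 72.7% of RVT, and cells with at least 8 were 18.7%, 28.8%, 58.1% and 5.46%. Between these classes *KDM5B* went from 30.8 to 22 CPM in S, from 28.7 to 20.1 in RV, from 54.8 to 38.4 in RVC and from 120 to 94.2 in RVT, so it was lower in the more cycling class of every library, although the class of 3 to 7 in RVT stood at 131 CPM, above both. The intervals of the classes did not overlap in any of the 4 libraries (46.2 to 64.6 against 35.7 to 41.3 CPM in RVC, and 115 to 125 against 80.4 to 110 in RVT). The RVT class with at least 8 held 415 cells with a median of 4036 UMIs, against 3048 in the class with at most 2. The class with at least 8 was also the deeper in S (10107 against 8172 UMIs), RV (12689 against 10758) and RVC (4253 against 3509). The part of depth in these class differences was not tested. Within matched classes *KDM5B* stayed higher in RVT than in S, 3.88-fold (3.58 to 4.22) in cells with at most 2 cycling UMIs and 4.28-fold (3.51 to 5.22) in cells with at least 8. RVT exceeded RVC 2.19-fold (1.85 to 2.61) and 2.45-fold (2.06 to 2.91) in the same classes. In cells with 3 to 7 the ratios were larger, 5.67-fold (5.02 to 6.4) over S and 3.58-fold (3.15 to 4.06) over RVC. *KDM5A* differed little between classes of S (21.6 and 21.8 CPM), RV (17.2 and 16.5) and RVC (52.5 and 52.6), and stood at 84 and 62.2 CPM in those of RVT.

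**Figure D5:**
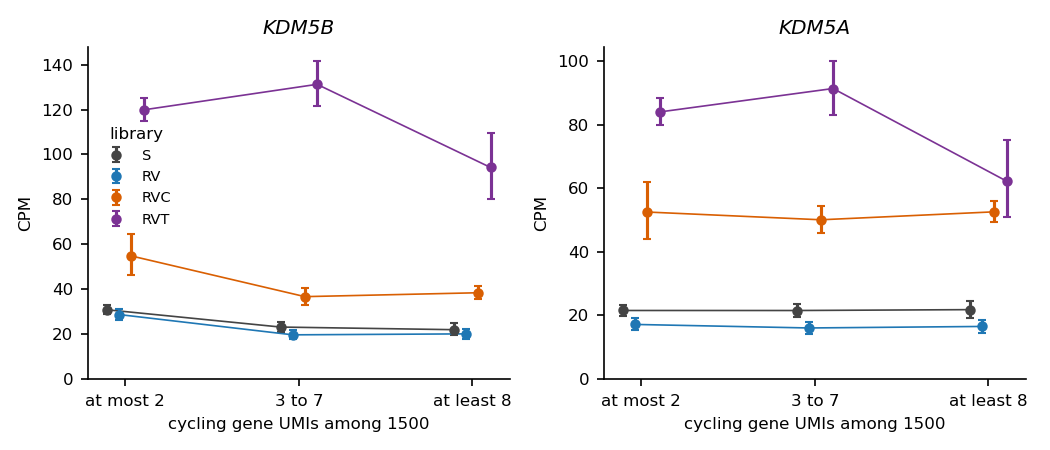
*KDM5B* and *KDM5A* (CPM, linear axis from 0) in cells with at most 2, 3 to 7 or at least 8 cycling gene UMIs among 1500 thinned UMIs; colours are libraries and bars 95% Poisson intervals. RVT lies above S in every class, with *KDM5B* at 120 against 30.8 CPM in the class with at most 2.

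*CDKN1A* encodes p21, an inhibitor of cyclin-dependent kinases and a target of p53. It was at 102 CPM in S and 248 in RV, with 137 in RVC and 112 in RVT, an order unlike that of *KDM5B*. Over cycling bins *CDKN1A* fell from 180 to 59.2 CPM in S, from 546 to 138 in RV and from 316 to 51.9 in RVC, whereas RVT held 114 and 115. Cells with a *CDKN1A* UMI among their 1500 thinned UMIs were compared with cells without one. *KDM5B* was higher in those with one in S (31.7 against 25.7 CPM, 1.23-fold, 1.06 to 1.43), in RV (31.5 against 20.4, 1.54-fold, 1.36 to 1.74) and in RVC (46.5 against 38.1, 1.22-fold, 1.04 to 1.42). In RVT the levels were 124 and 120 CPM, 1.03-fold (0.929 to 1.15). Restricted to cells with at most 2 cycling UMIs, the ratio was 1.2 in S (0.985 to 1.45) and 1.35 in RV (1.13 to 1.61), with 1.21 in RVC (0.824 to 1.74) and 1.06 in RVT (0.931 to 1.19), so that RV alone kept an interval above 1. The ratios of S and RVC hardly moved from 1.23 and 1.22, and that of RV moved more, from 1.54. Intervals widened with fewer cells: S cells with a *CDKN1A* UMI went from 621 to 337, and this class held 660 RVC cells. *KDM4B* had larger ratios than *KDM5B*, 1.55-fold higher in S, 1.99-fold in RV and 1.83-fold in RVC in cells with a *CDKN1A* UMI, and 0.949 in RVT. *KDM5C* was also higher in such cells, 1.35-fold in S (1.06 to 1.69), 1.35-fold in RV (1.08 to 1.66) and 1.25-fold in RVC (1.02 to 1.51). In RV alone, *KDM6B* (1.38-fold, 1.11 to 1.72) and *KDM5A* (1.21-fold, 1.03 to 1.41) had intervals above 1. How large a share of all genes had such intervals is not given here, so nothing particular to these genes was read from them. In cells with at most 2 cycling UMIs, *KDM4B* kept intervals above 1 in S (1.7, 1.13 to 2.5) and RV (1.89, 1.34 to 2.67), and *KDM5C* in S (1.41, 1.03 to 1.9). There *KDM5C* was 1.23 in RV (0.893 to 1.69) and 0.956 in RVC (0.506 to 1.72), and in RV *KDM6B* was 1.01 (0.711 to 1.41) and *KDM5A* 1.07 (0.837 to 1.35), all with intervals that included 1. *KDM1A* was between 0.836 and 1 in the 4 libraries, each with an interval that included 1. Median UMIs of cells with and without a *CDKN1A* UMI were 9577 and 8735 in S and 12318 and 11409 in RV.

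Across 16 sums (4 libraries by 4 cycling bins), the genes with log2(CPM + 1) most like that of *KDM5B* were *DDX17*, *PHF23*, *KIF3B*, *NCSTN* and *ZNFX1*, chosen from 4044 genes of at least 20 CPM outside the 8 and the cycling lists. Their Pearson coefficients were 0.989, 0.987, 0.986, 0.986 and 0.986, over points that share libraries. Each was highest in RVT, as *DDX17*, an RNA helicase gene, with 36.8 CPM in S and 29.7 in RV, with 53.1 in RVC and 162 in RVT. They were picked by likeness to *KDM5B*, which was itself highest in RVT, so this is part of the choice. Among the 8 genes the coefficient with *KDM5B* was 0.94 for *KDM4A*, 0.908 for *KDM5A*, 0.866 for *KDM2A*, 0.661 for *KDM1A*, 0.596 for *KDM5C*, 0.267 for *KDM4B* and 0.101 for *KDM6B*. Where these values stand among the 4044 genes is not given here.

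Of 15 other histone demethylases and related JmjC genes, 5 stood at 5 CPM or more in S. None of the 5 was past 2-fold in RV over S, 1 was higher in RVC over S (*JMJD6*) and 1 in RVT over S (*KDM3B*), and 0 were lower, beside the shares of all genes of that level in S given above (17.2% and 26.9% in RVC, 23.3% and 27.0% in RVT). Another 4 (*KDM3A*, *KDM4C*, *PHF2* and *PHF8*) passed 5 CPM in the mean of the libraries only through the MEK inhibitor libraries and are not counted, nor is *KDM7A*, chosen after its values were seen, at 2.99 CPM in S and 1.09 in RV, with 0.758 in RVC and 1.97 in RVT. *KDM3B*, which acts on lysine 9 of histone H3, rose in RVT (5.29 to 23.9 CPM, 4.52-fold), followed by the lysine 27 demethylase *KDM6A*, related to *KDM6B* (2.25 to 9.01 CPM). *KDM6A* is named because it reached 5 CPM in RVT, so its rise is part of the choice. *JMJD6* stood at 7.34 CPM in S and 10.6 in RV, with 20.3 in RVC and 6.06 in RVT, thus highest with cobimetinib and not with trametinib. *RIOX1*, named in the same way, stood at 2.06 CPM in S and 1.76 in RV, with 5.37 in RVC and 7.4 in RVT. *RIOX2* was at 12.5 CPM in S and 16 in RV, with 10.9 in RVC and 15.9 in RVT. In RV *KDM2B* was 1.26-fold and *KDM3B* 1.05-fold below S, although *KDM2B* stood at 13 CPM in RVC and 12.1 in RVT against 6.69 in S.

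H3K4 methyltransferase genes, whose products place the mark that KDM5 enzymes remove, were counted in the same way. Of 10 genes, 8 stood at 5 CPM or more in S, and 0 of these were past 2-fold in RV over S. In RVC over S 4 were higher (*KMT2A*, *KMT2C*, *RBBP5* and *DPY30*) and 0 lower, and in RVT over S 3 were higher (*KMT2A*, *KMT2C* and *RBBP5*) and 1 lower (*WDR5*), beside the same shares of all genes. The median log2 ratio of the 8 was 0.78 in RVC and 0.56 in RVT over S, where all genes of at least 5 CPM in S had medians of -0.02 and 0.06. The counts and medians of this list and of the other demethylases are without TMM scaling. That scaling shifts the median of all genes by -0.214 in RVC over S and -0.517 in RVT over S, so genes close to 2-fold higher may fall below it. *KMT2A* (MLL1) stood at 24.6 CPM in S and 22.6 in RV, with 75.3 in RVC and 100.1 in RVT, and *KMT2C* at 13.8 in S and 12.8 in RV, with 31.9 in RVC and 56.6 in RVT. The shared subunit gene *DPY30* stood at 75.9 CPM in S and 93.9 in RV, with 234 in RVC and 132 in RVT. *WDR5*, which encodes a core subunit of these complexes, was lower in RVT, at 7.36 CPM against 17.5 in S, 18.6 in RV and 12.3 in RVC. *KMT2B* was at 7.54 CPM in S and 6.28 in RV, with 3.85 in RVC and 5.98 in RVT, and *SETD1A* at 5.87 in S and 5.25 in RV, with 3.97 in RVC and 5.47 in RVT.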

How the data were processed

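The 4 libraries of A375 cells, 10000 cells loaded on 1 channel each (10x Chromium version 2), were analysed. The deposited values are raw UMI counts per gene and barcode which the authors made with bcl2fastq 2.20.0.422 and Cell Ranger on GRCh38, per the submitters' processing notes. The Cell Ranger version is not given in the sources used here. Barcodes with under 500 genes, over 20% mitochondrial UMIs or the highest scrublet scores (scanpy 1.11.5, 0.8% per 1000 barcodes) were removed. The caller's own threshold marked 0 to 5 barcodes per library and was not used. Groups followed the labelled treatment. Counts were summed per library or class of cells and divided by total UMIs (CPM). Libraries hold 25407545 to 58611860 UMIs, which sets the width of the intervals. Genes with no UMI were set to 3 UMIs in ratios. Identifiers were matched to GENCODE 29 and a table of current names, sequences came from RefSeq, and 32913 of the 32991 shared identifiers were in GENCODE. No test between conditions is possible with 1 library each. Scaling by TMM used edgeR 4.0.16. Scripts were tested on simulated data. Other cell filters, scalings, weights, thinning depths, cycling classes and GC centring were tried as alternatives. All 8 members are named, and of each other list the largest 2 rises and 2 falls against S among genes that reached 5 CPM in either library compared. The members, lists and rules were chosen with earlier results of these data known.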

Additional observations from a re-analysis of the deposited data

How the results depend on the processing

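No paired analysis was possible because each condition has 1 library. Values below are log2 ratios, percentages or counts of the 8 genes, and the cause of a change was not tested unless the alternative itself fixes it. *KDM5B* in RVT over S (2.21) was 1.69 with TMM factors, 1.8 in the lowest cycling bin, 1.96 in thinned cells with at most 2 cycling UMIs and 1.44 with GC centring. In RVC over S (0.58) it was 0.37 with TMM factors, 0.39 without ribosomal protein and mitochondrial genes in the totals, 0.38 in the lowest bin, 0.83 with at most 2 cycling UMIs and 0.11 with GC centring. In RVT over RVC (1.63) these were 1.32, 1.74, 1.42, 1.13 and 1.27. Directions turned by more than the counting interval for *KDM1A* in RV over S (-0.31 in the lowest bin, -0.09 with at most 2 cycling UMIs) and in RVT over RVC (-0.19 with TMM factors, -0.09 with GC centring), for *KDM4B* in RVC over S (1.48 with GC centring), RVT over S (-0.39 with TMM factors, -0.57 in the lowest bin) and RVT over RVC (-0.14 with at most 2 cycling UMIs), and with GC centring for *KDM5C* in RVT over S (-0.01) and *KDM2A* in RVT over RVC (-0.02). Values near 0 also changed sign inside that interval, such as *KDM4B* in RVT over S (-0.16 with at most 2 cycling UMIs) and *KDM4A* in RVC over S (0.09 in the lowest bin, 0.03 with at most 2 cycling UMIs).

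At 3-fold in place of 2-fold, 1 gene (*KDM2A*) was higher and 0 lower in RVC over S (9.24% and 14.2% of all genes) and 1 (*KDM5B*) was higher in RVT over RVC (5.84%). *KDM2A* stood below 5 CPM in S and passed the mean only through treated libraries, so its count there is part of the choice. At 1.5-fold, 1 was lower in RV over S (4.79%). Among genes of at least 20 CPM, where 3 of the 8 remain, 1 was higher and 0 lower in RVC over S (21.8% and 25.9% of all genes of that level), 2 were higher in RVT over S (23.7%) and 1 in RVT over RVC (12.5%).

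Between bins, the G1/S list alone gave *KDM5B* -1.03 in S, -1.02 in RV and -0.6 in RVC. Fixed classes (at least 8 against at most 2 cycling UMIs) gave -0.49 in S, -0.51 in RVC and -0.35 in RVT, where *KDM5A* (-0.43) and *KDM5C* (-0.47) turned too, and, inside the counting interval, *KDM4B* in RVT (-0.29) and *KDM2A* in RVC (0.31). The alternatives chosen after seeing the data ranked cells inside 10 strata of UMIs per cell (*KDM5B* -0.54 in S) or of the *NEAT1* and *MALAT1* share (*KDM5B* -0.27 and *KDM5A* 0.24 in RV). *KDM4A* in RV was -0.13 with the G1/S list. Counts at 1.5-fold lower were 1 in S with fixed classes or inside strata of UMIs, 1 in RV with the G2/M list, fixed classes or either set of strata, 2 in RVC with the G1/S list and 1 with fixed classes, and 1 in RVT with fixed classes or inside strata of UMIs. Counts higher were 0 in RV with 3 bins, the G2/M list, fixed classes, totals without cycling, ribosomal protein and mitochondrial genes, or strata of the nuclear RNA share, and 1 in RVC with fixed classes.

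Cells with a *KDM5B* UMI were 2.68%, 2.13%, 4.12% and 12% of S, RV, RVC and RVT at 1000 UMIs and 21%, 23.2%, 15.1% and 30.6% unthinned. Depth limits *KDM4B* and *KDM6B* most, with 134 and 140 UMIs in RVC.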

Other observations

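Partners and further histone methyltransferases were measured beside the demethylases. Among 9 genes of the CoREST complex, in which KDM1A works, 6 stood at 5 CPM or more in S. *HMG20B* stood at 83 CPM in S and 59.5 in RV, with 6.95 in RVC and 20.8 in RVT. *GSE1* (3.65 CPM in S, 2.98 in RV, then 17.1 in RVC, 18.1 in RVT) and *RCOR1* (3.31, 3.89, 7.46 and 13.1 in the same order) are named because they reached 5 CPM with a MEK inhibitor, so that being higher there is part of the choice. *HDAC1* was at 41.1 CPM in S and 30.2 in RV, with 57.5 in RVC and 60.1 in RVT, *HDAC2* at 54.3 and 64.9, with 64 and 52.6, and *RCOR3* at 18.6 and 22.1, with 9.34 and 22. Of 6 genes of PRC2, the complex that places the mark KDM6B removes, the catalytic *EZH2* stood at 26.7 CPM in S and 28.4 in RV, with 13.3 in RVC and 6.26 in RVT, and its relative *EZH1* at 5.78 and 5.69, with 9.28 and 16.9. *EED* was at 10.8 CPM in S and 11.1 in RV, with 21 in RVC and 8.62 in RVT, and *RBBP4* at 34.7 and 33.6, with 33.9 and 68.9. *RBBP7* was at 48.8 CPM in S and 61.7 in RV, with 37.3 in RVC and 41.9 in RVT, and *SUZ12* at 26.2 and 30.2, with 36.6 and 36.8. Of 5 H3K9 methyltransferase genes, *SUV39H1* was at 4.91 CPM in S and 6.78 in RV, with 9.95 in RVC and 3.66 in RVT, *SUV39H2* at 6.28 and 7.39, with 7.04 and 2.52, and *SETDB1* at 13.3 and 10.2, with 12.6 and 22.8. *EHMT1* was at 12.6 CPM in S and 11.8 in RV, with 8.61 in RVC and 15.2 in RVT, and *EHMT2* at 10.8 and 11.1, with 6.37 and 8.15. Of 5 H3K36 methyltransferase genes, *SETD2* was at 7.56 CPM in S and 6.28 in RV, with 19.4 in RVC and 29.6 in RVT, *ASH1L* at 22 and 21.7, with 38.4 and 84.7, *NSD2* at 14.4 and 15.3, with 39.1 and 18.5, and *NSD3* at 45.9 and 43.5, with 29.7 and 30. All levels of these partners and methyltransferases are without TMM scaling or GC centring.

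The nuclear RNA *NEAT1* was at 467 CPM in S and 773 in RV, with 1452 in RVC and 7452 in RVT, and *MALAT1* at 11784, 8977, 25044 and 20046. Between cells with the highest and the lowest share of UMIs on these RNAs (outer of 4 equal bins), the *KDM5B* log2 ratio was 0.68 in S and 0.78 in RV, with 0.57 in RVC and 0.32 in RVT, whereas for *KDM4B* it was 0.89, 0.77, 1.20 and 1.21. Between the bins with the most and the fewest UMIs per cell the *KDM5B* log2 ratio was -0.48 in S and -0.25 in RV, with -0.40 in RVC and -0.49 in RVT. *MDM2*, a target of p53 and its negative regulator, was at 23.6 CPM in S and 35.4 in RV, with 23.8 in RVC and 32.8 in RVT.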
